A study of Mus musculus with 42 samples.

Results

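The 6 genes described here, Bex1, Bex4, Ngfrap1, Tceal8, Wbp5 and Morf4l2, lie together on the mouse X chromosome and were chosen from the 24083 genes of a stage table because their paternal shares in 8-cell embryos and morulae stood apart from those of other genes. The paternal share is the paternal level over the sum of both alleles, given where that sum reached 1 FPKM (fragments per kilobase of transcript, scaled to library size). All 6 were also present in a table of 23986 genes from control and XRRa-deleted morulae and in a table of 1052 X-linked genes from EedmNull embryos. The 8-cell and morula values, and the control and XRRa KO morula values, are therefore descriptions of how the genes were chosen and carry no test.

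Bex genes (brain-expressed X-linked) encode small, largely unstructured adaptor proteins of placental mammals. Ngfrap1, also named Bex3, encodes a family member that binds the low-affinity nerve growth factor receptor and is linked to cell death signalling. Tceal genes encode small proteins related to the transcription elongation factor TFIIS, and Wbp5, also named Tceal9, is one of them. Morf4l2 encodes an MRG-domain protein of histone acetyltransferase complexes and belongs to neither family. In female mouse embryos the paternal X chromosome is silenced first, under its own Xist RNA. Extraembryonic tissues keep that imprinted pattern, whereas cells of the inner cell mass that form the epiblast reactivate the paternal X and later silence either X at random.

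RNA was measured by Smart-seq2, a full-length cDNA method that does not keep the strand. XRRa KO morulae (4 female samples, labelled Xp XRRa KO, in which the paternal X lacks XRRa) were set against control female morulae (3) and control male morulae (4), all wild type apart from the deletion. The wild-type female stages were 8-cell embryos (3 samples), morulae (3), ICM, the inner cell mass at E3.5 (2), TE, the E3.5 trophectoderm (3), E6.5 epiblast, Epi (1), E6.5 visceral endoderm, VE (3), E6.5 extraembryonic ectoderm, ExE (2), and E9.5 yolk sac (1). Both sets came from C57BL/6N mothers and PWK/PhJ fathers. EedmNull embryos (13 female samples of E7.5 ExE) came from Eedfl/fl;Gdf9-Cre mothers, in which Cre is driven in the oocyte, and wild-type PWK/PhJ fathers, so that the maternal supply of Eed, a core PRC2 subunit, was missing while a paternal Eed gene was present. Eed is not X-linked and its table held X-linked genes only, so the deletion was not checked here. In every cross the father was PWK/PhJ, so parent of origin and strain cannot be told apart. In the stage and morula tables the authors pooled the samples of a group into 1 column per allele. No spread between samples can be computed there, and no p-value is given.

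The allele columns were checked with males and with imprinted genes, the latter added after the data were seen. Of 14 imprinted genes known to be expressed from the paternal allele, 6 of the 7 measured in XRRa KO morulae, 7 of 7 in control female morulae and 6 of 6 in control male morulae had a paternal share above 50%, with medians of 96.3%, 98.3% and 98.9%. Of 6 imprinted genes known to be expressed from the maternal allele, 3 were measured in each of these columns, and 0, 2 and 1 of them had a paternal share above 50%, with medians of 45.0%, 78.4% and 32.1%. This second list did not separate the alleles in morulae, so the check rests on the first list and on the males. In the stage columns, median shares of the first list ran from 96.9% in ExE to 100% in yolk sac. Those of the second list were 39.6% in 8-cell embryos (3 genes measured), 32.5% in morulae (2 genes) and 25.7% or less in the later columns. In control male morulae, whose only X is maternal, 136 of 139 X-linked genes of at least 5 FPKM were 5% paternal or less. Xist was not uniform among the morula columns: it had 7.44 paternal and 24.7 maternal FPKM in XRRa KO morulae, 19.5 and 9.15 FPKM in control female morulae, and 20.5 and 0.111 FPKM in the separately normalized morulae of the stage table. Lineage markers were present where the labels place them, except that the yolk sac column was sparse, with 4506 genes above 0, and held 1 of 4 primitive blood markers, with Hba-x, Hbb-y and Gata1 at 0. They were not confined to those columns: inner cell mass markers summed to 116 FPKM in TE and trophectoderm markers to 663 FPKM in VE. The sum of 5 oocyte markers was 50.9 FPKM in 8-cell embryos, 34.2 in morulae and 15.5 in ICM. That of 5 maternal decidua markers was 16.0 FPKM in VE. The part of oocyte or decidua RNA in the shares was not tested.

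The promoters of the 6 genes are shown because 5 of the 6 genes shared a paternal excess in 8-cell embryos. Each stretch runs from 80 bases before to 50 bases after an annotated transcription start of RefSeq (GRCm38.p6, a later build than the mm9 of the expression files), on the strand of the gene. Capitals mark the letters TGACG and CACGTG. The 19-letter pattern TGACGNNNNNNNCACGTGA was written down after the sequences were read and is a description.
Bex1, chrX:136215464-136215593 (minus strand): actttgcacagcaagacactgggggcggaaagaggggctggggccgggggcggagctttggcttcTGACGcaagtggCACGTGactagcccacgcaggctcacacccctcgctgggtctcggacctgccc
Bex4, chrX:136138916-136139045 (plus strand): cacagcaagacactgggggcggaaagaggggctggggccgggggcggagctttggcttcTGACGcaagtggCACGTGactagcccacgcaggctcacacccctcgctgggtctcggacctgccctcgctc
Ngfrap1, chrX:136270173-136270302 (plus strand): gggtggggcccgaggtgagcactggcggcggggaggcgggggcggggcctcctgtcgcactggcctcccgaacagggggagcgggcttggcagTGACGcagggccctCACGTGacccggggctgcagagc
Tceal8, chrX:136172202-136172331 (minus strand): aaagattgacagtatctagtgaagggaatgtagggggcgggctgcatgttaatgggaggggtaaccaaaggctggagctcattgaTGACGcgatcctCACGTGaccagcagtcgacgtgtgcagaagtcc
Wbp5, chrX:136245000-136245129 (plus strand): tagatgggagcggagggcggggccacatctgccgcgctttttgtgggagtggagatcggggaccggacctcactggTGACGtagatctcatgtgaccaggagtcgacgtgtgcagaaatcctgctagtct
Morf4l2, chrX:136741560-136741689 (minus strand): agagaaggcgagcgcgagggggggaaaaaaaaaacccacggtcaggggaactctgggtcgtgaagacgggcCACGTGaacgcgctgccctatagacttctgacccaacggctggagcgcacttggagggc

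All 6 genes were matched to the promoter table. With both strands searched over 300 bases (250 before and 50 after each start), CACGTG, which lies inside the longer pattern, was present at 1 or more starts of 5 of the 6 genes and TGACG at all 6, against 8.09% and 23.0% of 27025 genes. Of the 11 X-linked Bex and Tceal genes, which include 5 of the 6, CACGTG was present in 9, TGACG in 11 and the longer pattern in 6. The motifs were thus not particular to the genes described here. The longer pattern was present in Bex1, Bex4 and Tceal8 and in 12 of 32851 promoters in all. Those belonged to 10 genes, 8 of them X-linked: Bex1, Bex4, Tceal8, their relatives Tceal3, Tceal5 and Tceal6, and Armcx1 and Armcx6 of the same chromosome, besides Ubap2 and Vps33a on autosomes. Morf4l2 had 4 annotated starts, and its stretch is that of the only one with CACGTG. In Ngfrap1 the short motifs stood further apart. The Bex1 and Bex4 promoters were identical at 287 of 290 aligned bases. Their transcripts overlap in sequence as well: 32.8% of the 50-base stretches of Bex1 and 49.7% of those of Bex4 recur in another gene, as do 13.9% of Ngfrap1 (in Bex2), 18.6% of Morf4l2, 0.909% of Tceal8 and none of Wbp5. How the authors divided such reads is not stated in the sources used here, so levels of Bex1, Bex4, Ngfrap1 and Morf4l2 are uncertain to that extent.

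In 8-cell embryos the 5 Bex and Tceal genes had most of their FPKM on the paternal allele and Morf4l2 on the maternal allele; in the morulae of the stage table this held for the 5 genes that reached 1 FPKM, Tceal8 being below it. Bex1 had 32.7 paternal and 1.09 maternal FPKM in 8-cell embryos and 16.2 and 0.0354 FPKM in morulae. Bex4 had 5.28 and 0 FPKM in 8-cell embryos and 2.37 and 0.0949 FPKM in morulae. Both Bex genes were thus above 96% paternal in either column, and 0 and 3 of the other X-linked genes exceeded Bex4.

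Ngfrap1 had 2.60 paternal and 0.472 maternal FPKM in 8-cell embryos and 2.05 and 0.428 FPKM in morulae. Tceal8 had 5.84 and 0.292 FPKM in 8-cell embryos; in morulae its 0.136 and 0.272 FPKM fell short of the minimum for a share. Wbp5 had 3.97 and 0.874 FPKM in 8-cell embryos and 2.15 and 0.851 FPKM in morulae. These were low levels: of 10744 genes above 0 in 8-cell embryos, 5178 exceeded Ngfrap1, 4331 Wbp5, 4180 Bex4 and 3934 Tceal8. Bex1 was higher, with 1598 genes above it.

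Morf4l2, the chromatin gene, had 9.62 paternal and 27.1 maternal FPKM in 8-cell embryos and 8.88 and 64.5 FPKM in morulae, which are shares of 26.2% and 12.1%. The shares of the other 5 genes in 8-cell embryos ran from 82.0% (Wbp5) to 100% (Bex4), where the other X-linked genes had a median of 42.3% (middle 50% 26.2% to 58.1%, 253 genes). In morulae the 4 with a share ran from 71.7% (Wbp5) to 99.8% (Bex1), where that median was 25.8% (246 genes). A share of at least 80% was held by 5 of 6 genes in 8-cell embryos, against 9.09% of other X-linked genes, and by 3 of 5 measured genes in morulae, against 4.07%. These values chose the genes. The control female morulae described below, also wild type and of the same cross, did not have such high shares. There the shares ran from 18.1% (Wbp5) to 58.7% (Bex1). The median of the 6 genes was 20.4%, against 29.4% for other X-linked genes. Ngfrap1 had 2.48 FPKM in total in the stage-table morulae and 30.3 FPKM in the control female morulae. The morula excess was thus seen in 1 of these columns only, and the cause was not tested. Below the minimum of 1 FPKM in ICM were Bex1 (0.411 paternal and 0 maternal FPKM) and Bex4 (0 and 0.819 FPKM). Just inside it was Bex1 in TE (1.37 FPKM).

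**Figure D1:**
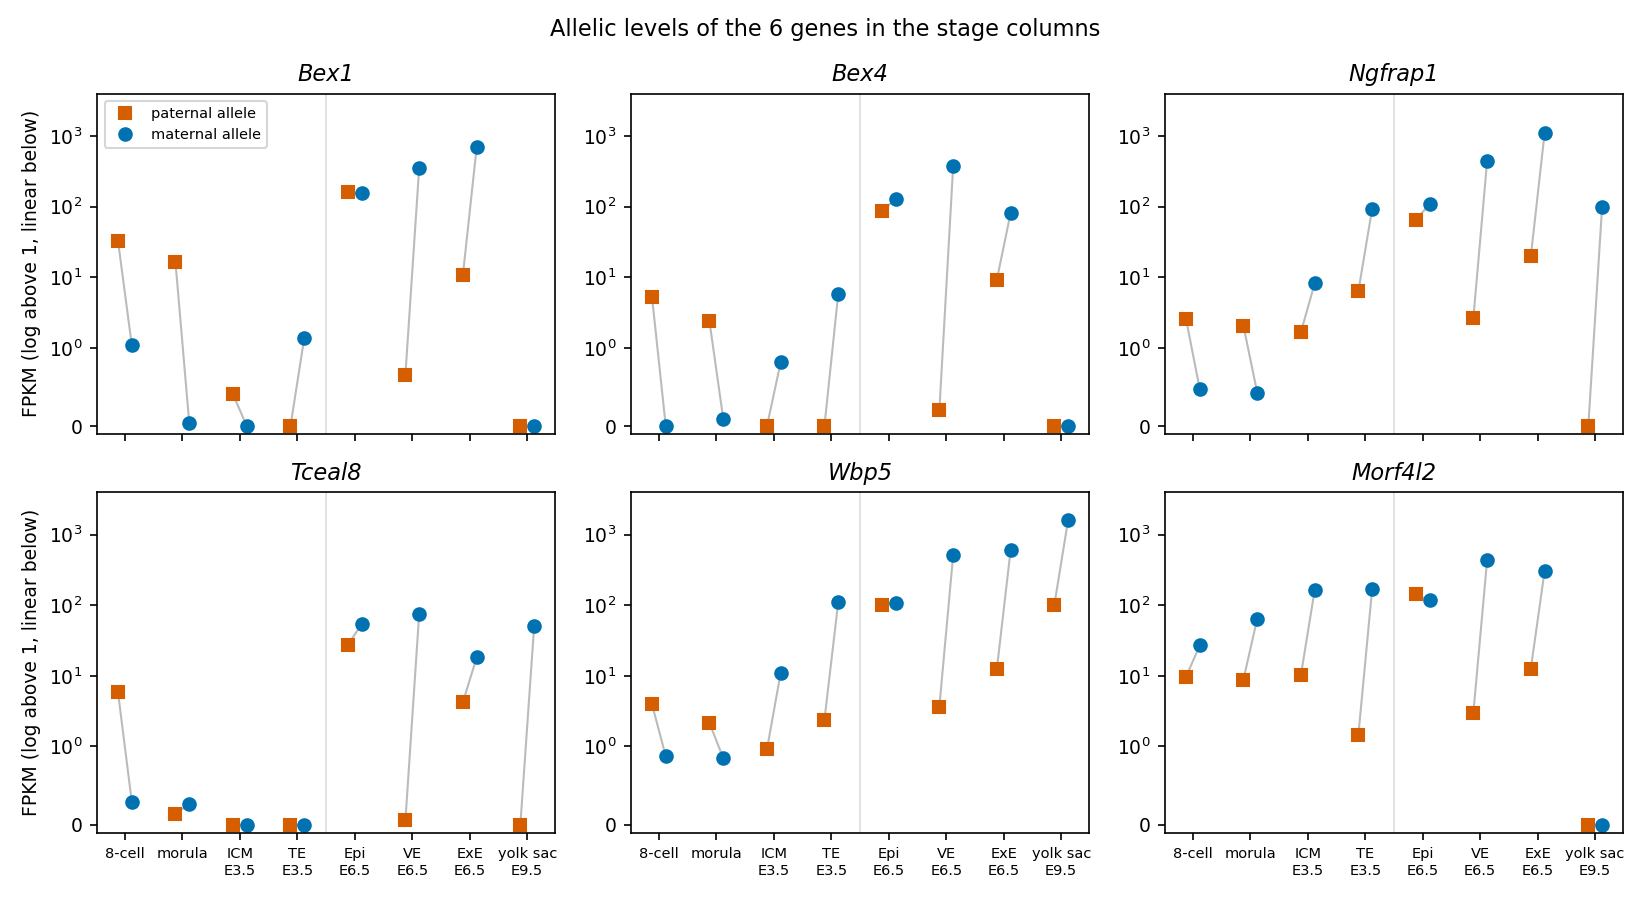
Paternal (squares) and maternal (circles) FPKM of each gene in the 8 pooled columns of the stage table, on an axis that is linear below 1 and logarithmic above; grey lines join the alleles of a column. Bex1, Bex4, Ngfrap1 and Wbp5 have the paternal allele above the maternal in 8-cell embryos and morulae and the maternal allele far above in VE and ExE.

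In the blastocyst, which was not used to choose the genes, the paternal excess was not seen in TE. Bex1 had 0 paternal and 1.37 maternal FPKM in TE, and Bex4 had 0 and 5.75 FPKM. Ngfrap1 had 6.37 and 93.5 FPKM, a share of 6.38%, and Wbp5 had a share of 2.11% at 112 FPKM in total. Morf4l2 had a share of 0.849% at 173 FPKM. Tceal8 was listed at 0 for both alleles in ICM and TE. Of the 5 genes measured in TE, 4 were at a share of 5% or less, where 51.9% of other X-linked genes were; the medians were 0.849% for the 5 and 4.56% for 268 others.

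In ICM only Ngfrap1, Wbp5 and Morf4l2 reached 1 FPKM. Ngfrap1 had 1.67 paternal and 8.17 maternal FPKM, a share of 17%. Wbp5 had 0.963 and 11.1 FPKM (8.00%), and Morf4l2 had 10.3 and 165 FPKM (5.87%). All 3 lay within the middle 50% of the other X-linked genes, which ran from 0.554% to 22.7%. All 5 trophectoderm markers were also present in the ICM column, with a sum of 1184 FPKM beside 3646 FPKM in TE, and their part in these shares was not tested.

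**Figure D2:**
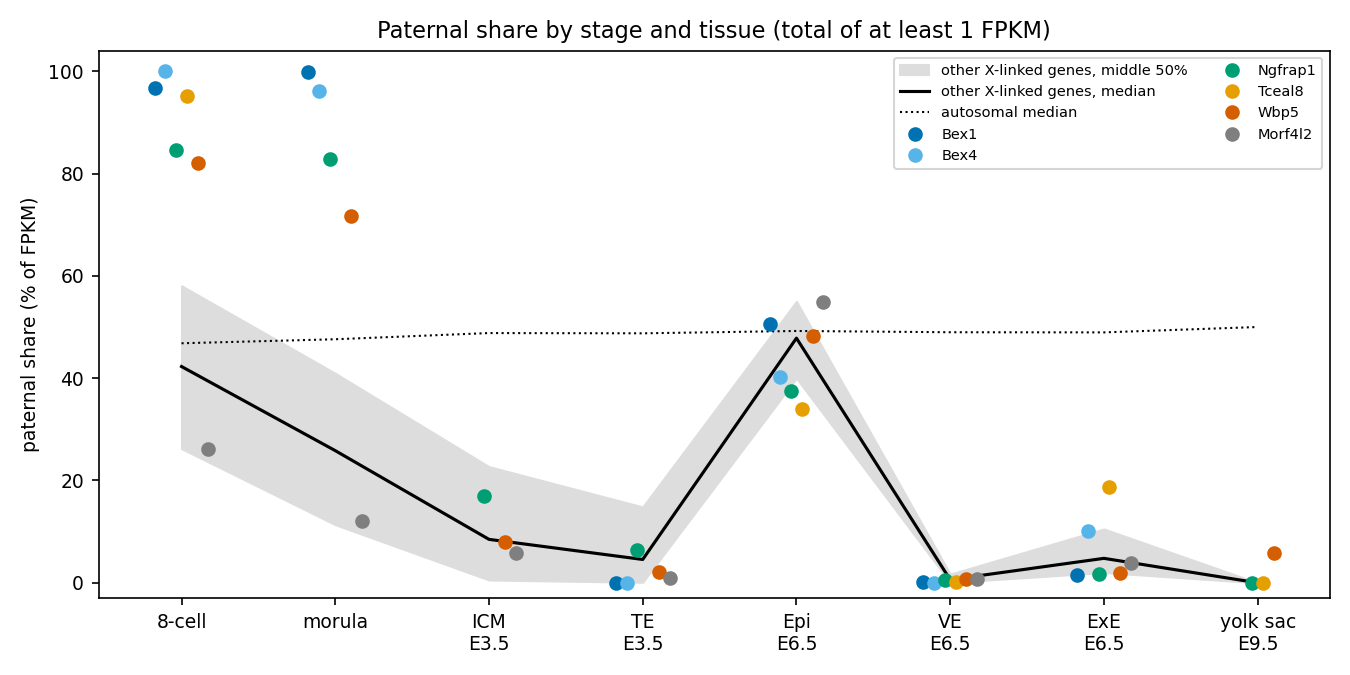
Paternal share (percent of FPKM) of the 6 genes by stage and tissue, with the median (line) and middle 50% (grey band) of other X-linked genes and the autosomal median (dotted), for genes of at least 1 FPKM. The 5 Bex and Tceal genes sit above the band in 8-cell embryos, Morf4l2 near its lower edge, and all 6 are below 1% in VE.

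At E6.5 all 6 genes had between 22.5 and 1120 FPKM in each of the 3 tissues, and their allelic balance differed between the tissues. In the single Epi sample the shares ran from 34.0% (Tceal8) to 55% (Morf4l2), around the X-linked median of 47.8%; Bex1 had 50.7% of 315 FPKM, Wbp5 48.2% of 209, Bex4 40.3% of 215 and Ngfrap1 37.5% of 173. In VE all 6 were at 0.713% (Wbp5) or less, and 52.2% of 314 other X-linked genes were below that value. Of those other genes 85.4% were at 5% or less, and their median was 0.610%. Bex4, wholly paternal in 8-cell embryos, had a share of 0.0547% of 375 FPKM in VE.

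In ExE the shares of the 6 genes ran from 1.52% to 18.8%. Bex1 had 1.52% paternal of 700 FPKM, Ngfrap1 1.76% of 1120, Wbp5 2.01% of 621 and Morf4l2 3.94% of 320, all under the X-linked median of 4.78%. Bex4 had 10.2% of 90.5 FPKM and Tceal8 18.8% of 22.5 FPKM. The middle 50% of other X-linked genes ran from 2.02% to 10.5%. Bex4 and Morf4l2 lay within it, Tceal8 above it, and Bex1, Ngfrap1 and Wbp5 just below it. Bex2, another X-linked Bex gene, had 17.8% in ExE and 0.430% in VE. A share of 5% or less was held by 4 of the 6 genes, against 50.4% of other X-linked genes. The 5 visceral endoderm markers, none at 0, summed to 233 FPKM in ExE and 2693 FPKM in VE. The 5 markers of inner cell mass and epiblast summed to 50.8 FPKM in ExE, with 4 of them at 1 FPKM or more. Their sum in Epi was 217 FPKM. The part of either marker set in these shares was not tested.

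By total level, Bex1 and Ngfrap1 were highest in ExE, at 700 and 1120 FPKM, Bex4 and Morf4l2 in VE, at 375 and 440 FPKM, and Tceal8 in Epi, at 81.6 FPKM, close to its 76.3 FPKM in VE. Wbp5 was highest in the yolk sac, at 1713 FPKM, where 4 of 4506 genes above 0 exceeded it; its share there was 5.88%. Ngfrap1 and Tceal8 had no paternal FPKM in yolk sac (totals of 98.5 and 50.5 FPKM). Most other X-linked genes had none there either: 21 of 142 had a share above 0%, and 19 exceeded Wbp5. Bex1, Bex4 and Morf4l2 were listed at 0 in that sparse column. In pooled tissue, fewer cells of a type and less RNA per cell cannot be told apart, and with 1 column per group no neighbours in these orders can be shown to differ.

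Few relatives and neighbours reached 1 FPKM in 8-cell embryos, and the shares of those that did differed. In 8-cell embryos 0 of 5 other Tceal genes reached 1 FPKM. Of the 11 Armcx, Gprasp and Arxes genes of the region 3 did: Arxes1 had a share of 93.5%, Arxes2 of 81.2% and Armcx5 of 40.3%. Arxes1 and Arxes2 were the only neighbours within 8 genes of the 6 that had a share in 8-cell embryos. Bex6, on chromosome 16, had 48.5% in 8-cell embryos and 65.3% in morulae. Morf4l1, the autosomal relative of Morf4l2 on chromosome 9, was between 51.4% and 60.9% in all 7 stage columns where it was measured. The X-linked genes whose shares lay nearest to the median of the 6 over at least 6 columns, among 205, were Pir (4.34 points on average), Rnf128 (4.89) and Mtcp1 (8.32); Pir and Rnf128 reached 1 FPKM in neither 8-cell embryos nor morulae. By the log2 total level over the 8 columns, the closest X-linked genes of 325 were Tsc22d3 for Bex1 (Pearson r 0.94), Eras for Bex4 (0.97), Pja1 for Ngfrap1 (0.95), Arxes2 for Tceal8 (0.96), Tmsb15l for Wbp5 (0.95) and Rab9 for Morf4l2 (0.96). These 8 points share libraries and tissue differences.

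XRRa KO morulae had the 6 genes mostly on the paternal allele, and control female morulae had 5 of them mostly on the maternal allele. Ngfrap1 had 39.5 paternal and 0.910 maternal FPKM in XRRa KO morulae, against 6.60 and 23.7 FPKM in control female morulae. Its share was 97.7% in XRRa KO, 21.8% in control female and 0% in control male morulae. Bex1 was the exception among controls: it had 30.4 paternal and 6.09 maternal FPKM in XRRa KO morulae, against 13.2 and 9.26 FPKM in control female morulae, shares of 83.3% and 58.7%.

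Bex4 had 7.81 paternal and 0.861 maternal FPKM in XRRa KO morulae, against 2.97 and 12.7 FPKM in control female morulae. Tceal8 had 8.26 and 0 FPKM in XRRa KO morulae, against 2.14 and 7.71 FPKM in control female morulae. Wbp5 had 27.5 and 1.76 FPKM in XRRa KO morulae, against 7.56 and 34.1 FPKM in control female morulae. The alleles had thus changed places between the columns for these 3 genes as for Ngfrap1. Morf4l2 had 78.2 and 18.3 FPKM in XRRa KO morulae, against 17.9 and 76.1 FPKM in control female morulae. In control male morulae the highest share of the 6 was 2.19%, that of Tceal8.

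**Figure D3:**
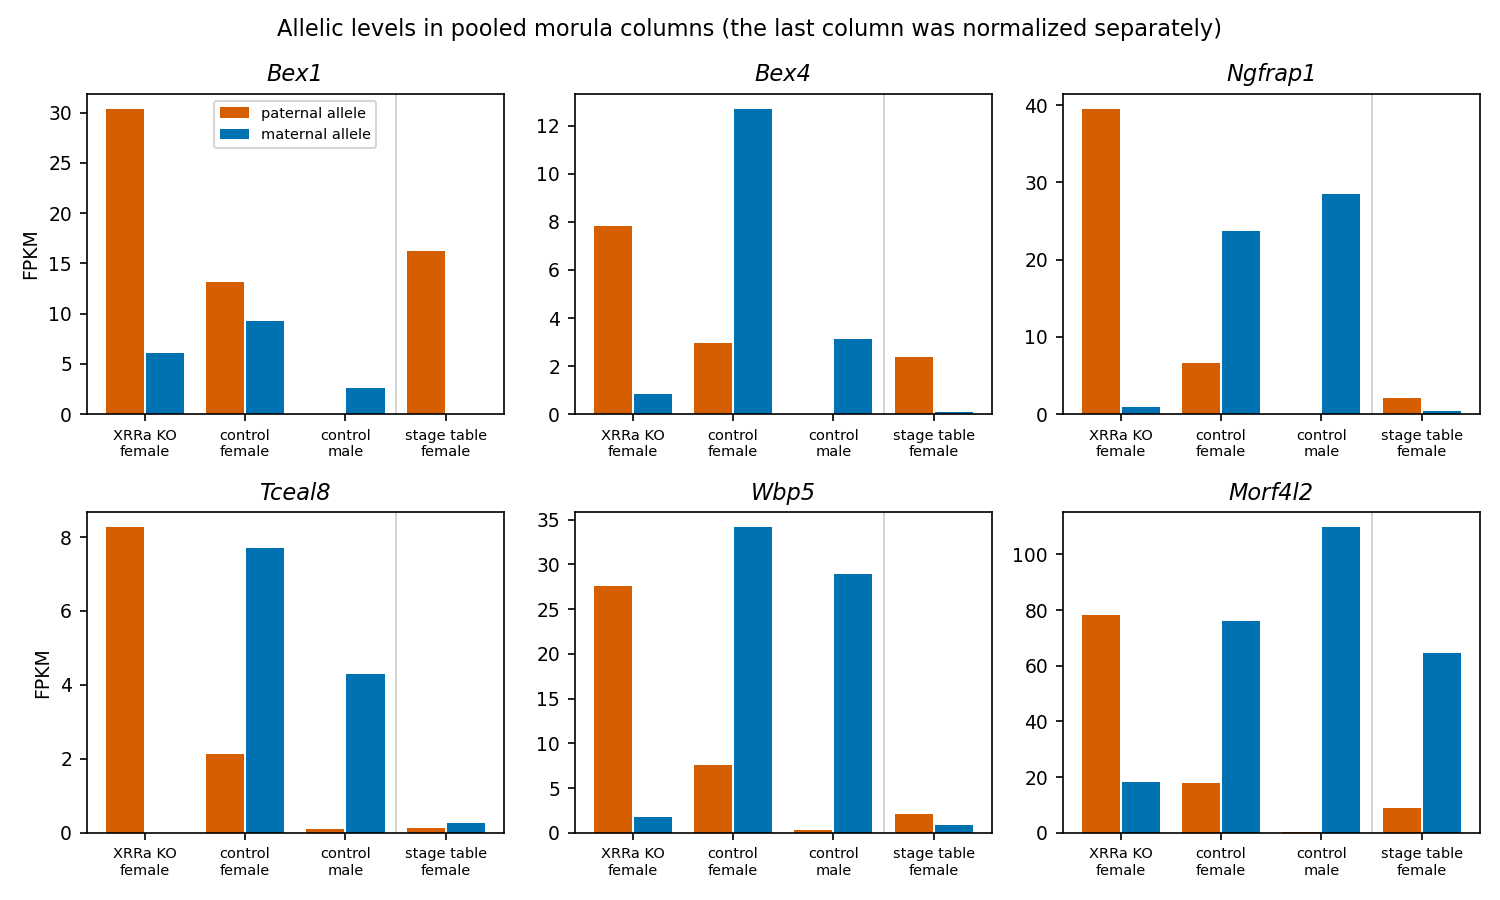
Paternal and maternal FPKM (bars from 0) of each gene in XRRa KO female, control female and control male morulae, 1 pooled column per allele, and in the separately normalized morulae of the stage table. Paternal bars exceed maternal bars for all 6 genes in XRRa KO, and for Bex1 alone in control females.

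By a rule of size (5 FPKM or more in either column and, with 1 FPKM added to both, a 2-fold or larger ratio), the paternal level was higher in XRRa KO for 6 of 6 genes, with log2 ratios from 1.15 (Bex1, Bex4) to 2.41 (Ngfrap1). The same held for 44.4% of 135 other X-linked genes. The maternal level was lower for 5 of 6, with log2 ratios from -2 (Morf4l2) to -3.69 (Ngfrap1) and -0.53 for Bex1, against 14.1% of 128 other X-linked genes. The total level passed the rule for 0 of 6, where 15.6% of other X-linked genes were higher and 1.11% lower. The share difference was 24.6 points for Bex1 and 62.1 to 78.2 points for the other 5, beside a median of 20.3 points over 236 other X-linked genes. Neighbouring genes also had higher shares in XRRa KO: Bex2 had 100% in XRRa KO and 12.4% in control female morulae, Bhlhb9 72.3% and 14.5%, and Arxes2 96.7% and 67.2%. Their totals were low, at 1.56, 2.78 and 6.47 FPKM in XRRa KO and 1.66, 2.43 and 1.86 FPKM in control female morulae. Against the stage-table morulae the share difference of XRRa KO was -16.5 points for Bex1, -6.08 for Bex4, 15.0 for Ngfrap1, 22.3 for Wbp5 and 69 for Morf4l2. Control female and stage-table morulae thus differed from each other. The size of the XRRa KO difference, and its sign for Bex1 and Bex4, depends on which of these wild-type columns is used. The sum of 5 trophectoderm markers, none at 0, was 352 FPKM in XRRa KO, 611 in control female and 1195 in control male morulae, and 160 in the stage-table morulae. Together with the allelic Xist levels above, it moved with the columns, and its part in these differences was not tested.

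The 13 EedmNull embryos had their own columns and were not used to choose the genes, so they could be tested. All 6 genes were expressed from both X chromosomes in most of them, and the balance varied between embryos from almost wholly maternal to mainly paternal. In the same embryos the median share of other X-linked genes ran from 0% (embryo 4) and 0.213% (embryo 1) to 62.1% (embryo 11) and 80.5% (embryo 13). By mean total level among 1052 X-linked genes, Ngfrap1 ranked 4, Bex1 5, Wbp5 7, Morf4l2 11, Bex4 37 and Tceal8 113.

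Bex1 had 1.79, 296 and 1059 paternal FPKM in the lowest, median and highest embryo, and 195, 543 and 940 maternal FPKM. Ngfrap1 had 7.15, 408 and 1293 paternal and 288, 857 and 1288 maternal FPKM. Wbp5 had 0, 229 and 689 paternal and 114, 372 and 786 maternal FPKM. The 2 alleles of these abundant genes therefore spanned overlapping ranges, with the median embryo higher on the maternal side.

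Morf4l2 had 1.61, 93.6 and 239 paternal FPKM in the lowest, median and highest embryo, and 54.5, 124 and 281 maternal FPKM. Bex4 had 5.17, 20.5 and 39.8 paternal and 18.6, 38.9 and 48.2 maternal FPKM. Tceal8 had 0, 2.52 and 22.8 paternal and 0.704, 3.86 and 22.2 maternal FPKM. Bex4 was the only one of the 6 with a share above 9% in every embryo.

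As shares, lowest, median and highest, Bex1 had 0.191%, 35.8% and 84.4%, Ngfrap1 0.552%, 29.6% and 81.8%, and Wbp5 0%, 38.1% and 85.8%. Morf4l2 had 0.567%, 33.9% and 78.7%, Bex4 9.68%, 39.1% and 66.2%, and Tceal8 0%, 43.8% and 83.3%. The share was above that of wild-type E6.5 ExE in 10 to 12 of 13 embryos for each gene, in a table normalized separately and at a different stage, without a test. The other X-linked genes did the same. Their median was above its wild-type ExE value of 4.78% in every embryo but 1 (0.213%) and 4 (0%). Beside the shares, Xist had 0.137 paternal and 0.812 maternal FPKM in embryo 13 and 1.63 and 0.135 FPKM in embryo 1; 5 X-linked trophoblast genes summed to between 25.9 and 244 FPKM over the embryos, with Rhox4b at 0 in all 13 and Esx1 at 0 in 4. Their part in the shares was not tested.

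**Figure D4:**
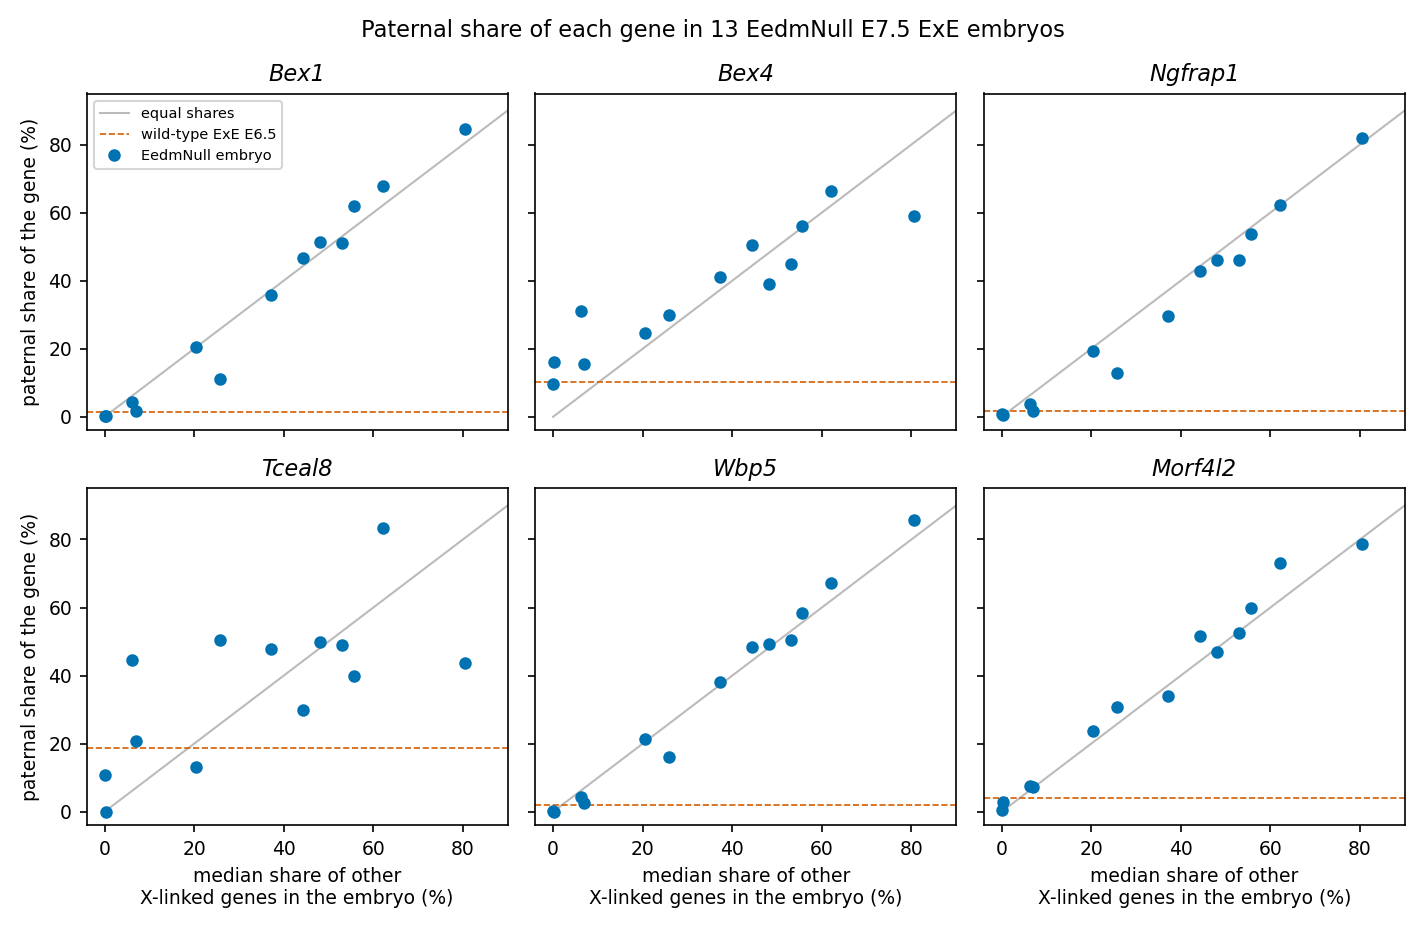
Paternal share of each gene (percent) against the median share of other X-linked genes in the same embryo (percent), 1 point per EedmNull embryo; the grey line marks equal shares and the dashed line the wild-type ExE E6.5 share. Bex1, Ngfrap1, Wbp5 and Morf4l2 lie near the line, while Bex4 lies above the line in the embryos with the lowest medians, Tceal8 scatters to both sides, and both lie below it at 80.5%.

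In limma, with log2 ratios of paternal over maternal FPKM plus 1 and Benjamini-Hochberg adjustment over 300 X-linked genes, 0 of 6 genes had an allelic difference past an adjusted p of 0.05, where 0.667% of all genes were lower and 0% higher. The estimates were negative for all 6: -2.20 for Bex1 (95% interval -4.10 to -0.31), -2.19 for Ngfrap1 (-3.88 to -0.51), -2.10 for Wbp5 (-3.98 to -0.23), -1.42 for Morf4l2 (-2.81 to -0.03), -0.84 for Bex4 (-1.55 to -0.14) and -0.62 for Tceal8 (-1.23 to -0.02). Adjusted p was 0.0833 to 0.0895. At an unadjusted p under 0.05 stood 6 of the 6 genes and 54% of all genes. Leaving out embryo 13 alone brought Bex1, Bex4, Ngfrap1, Wbp5 and Morf4l2 to adjusted p of 0.0233 to 0.0327, together with 205 genes called lower in place of 2.

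Set against the median of other genes in the same embryo, 1 of 6 genes passed in limma, where 12.3% of all genes were lower and 11.3% higher. Ngfrap1 was lower, with an estimate of -1.43 on the log2 scale (95% interval -2.47 to -0.39, adjusted p = 0.0467), with its share below the embryo median in 9 of 13 embryos. The adjusted p ran from 0.0232 to 0.101 when 1 embryo was left out and was above 0.05 without embryo 1, 2, 3, 4, 5, 6, 7 or 10. The estimates of Bex1 (-1.44), Wbp5 (-1.35), Morf4l2 (-0.66), Bex4 (-0.08) and Tceal8 (0.14) did not pass. The 1 FPKM added to both alleles pulls the log2 ratios of low-level genes towards 0. Estimates on that scale, here and between alleles, therefore depend on level. A scale of shares in percent was added after the data were seen. On it Ngfrap1 was -2.93 points from the embryo median in limma (95% interval -5.53 to -0.33, adjusted p = 0.108). On this scale 0 of 6 genes passed, where 23 of 218 other X-linked genes were lower and 24 higher. Bex1 was at -0.22 points, Wbp5 at 0.19, Morf4l2 at 2.29, Tceal8 at 3.39 and Bex4 at 3.40.

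All 6 genes moved with the rest of the X chromosome between embryos. The slope of the log2 ratio on the embryo median was called above 0 in limma for 6 of 6, as for 93% of all genes, with adjusted p from 8.97e-10 (Ngfrap1) to 0.0024 (Tceal8). Slopes were 2.87 for Bex1, 2.82 for Wbp5, 2.52 for Ngfrap1, 2.04 for Morf4l2, 0.92 for Bex4 and 0.62 for Tceal8. That scale depends on level because 1 FPKM is added: other genes had a median slope of 0.57 at 1 to 5 FPKM and 1.81 at 50 FPKM or more.

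On the share scale the slopes were 1.11 for Bex1 (95% interval 0.99 to 1.23), 1.09 for Wbp5 (0.997 to 1.19), 1.02 for Ngfrap1 (0.92 to 1.13) and 1.02 for Morf4l2 (0.91 to 1.13); these intervals include 1. The slope was 0.64 for Bex4 (0.48 to 0.81) and 0.57 for Tceal8 (0.20 to 0.94). Intervals below 1 were held by 2 of 6 genes and by 21.1% of 218 other X-linked genes, whose median slope was 0.97. Bex4 had 16.2% and 9.68% paternal in embryos 1 and 4, where the X-linked medians were 0.213% and 0%, and 59.0% in embryo 13, where the median was 80.5%. Tceal8 was the lowest of the 6, at a median total of 5.28 FPKM, and its embryos scattered most, from -36.7 to 38.2 points around the embryo median.

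**Figure D5:**
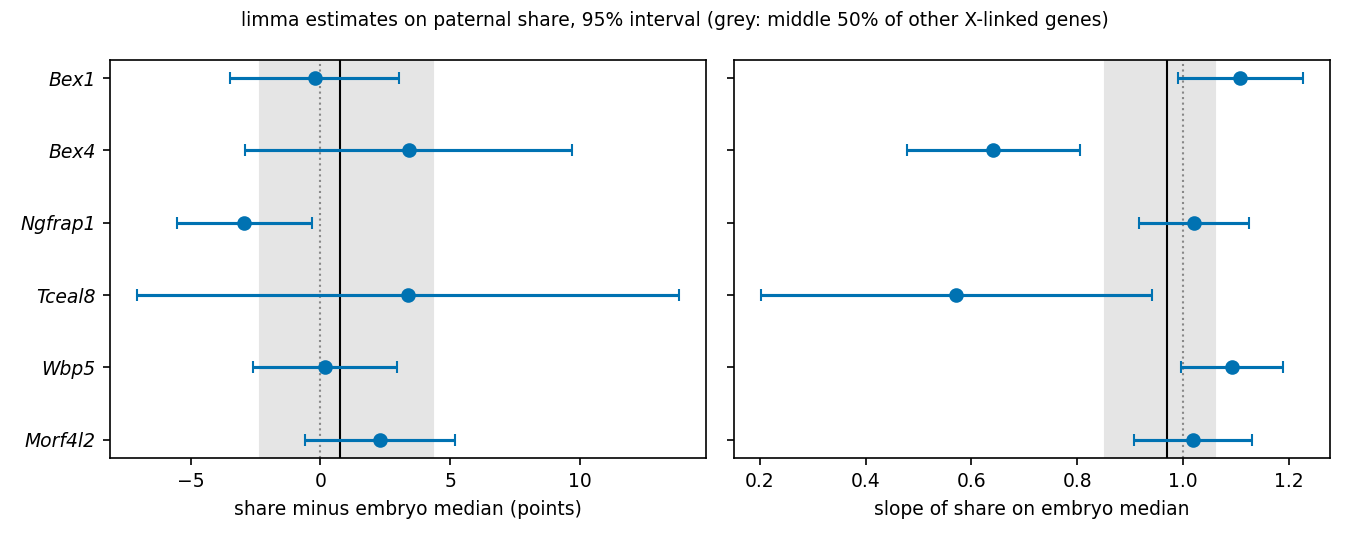
limma estimates on the share scale with 95% intervals over 13 EedmNull embryos: share minus embryo median (points, left) and slope on the embryo median (right). The vertical line and grey band give the median and middle 50% of other X-linked genes and the dotted line marks 0 or 1; Bex4 and Tceal8 have slopes of 0.64 and 0.57.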

How the data were processed

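Allele-resolved Smart-seq2 RNA levels of 42 mouse samples were used as deposited. The values are FPKM, deposited by the authors separately per allele. Tools named in the submitters' processing notes are Trim Galore 0.6.4, HISAT2 2.2.0 and StringTie 2.1.1, with the build mm9; how reads were assigned to alleles is not stated in the sources used here. The authors pooled replicates in the stage and morula tables. No counts were given, so depth is unknown and no interval for it was computed. Shares in sparse columns or at low totals may rest on few fragments, and their digits do not state their precision. 5 summary lines were left out.

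Shares were paternal FPKM over the sum at a total of at least 1 FPKM. The tables were normalized separately. For EedmNull embryos, log2 ratios (pseudocount of 1 FPKM, mean total of at least 1 FPKM) were fitted with limma (lmFit, eBayes with a variance trend), and p-values adjusted by the Benjamini-Hochberg method. The labels do not say whether embryos shared litters. All X-linked genes were fitted together. The fits were also run on simulated data, with almost no pseudocount and with equal noise for all genes. That run therefore does not cover the dependence on level that the pseudocount of 1 FPKM brings. Medians and counts of other genes leave out the 6. Named genes were the 6, up to 4 per family list with at least 5 FPKM in 1 column, and the nearest by share or level; Arxes1, Armcx5, Tsc22d3 and other examples follow that rule or were chosen after their values were seen. The list of imprinted genes was added after the data were seen. The members and lists were chosen with earlier results of these data known. Of 24083 genes, 23951 were matched to the RefSeq table (GRCm38.p6), used for names, chromosomes and promoters. Software was Python 3.11.15, numpy 2.4.6, pandas 2.3.3, matplotlib 3.10.9, Biopython 1.88, R 4.3.3 and limma 3.58.1.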

Additional observations from a re-analysis of the deposited data

How the results depend on the processing

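No paired analysis was possible because the stage and morula columns pool the replicates whose numbers groups share; this concerns replicate numbers only, as the allele ratios of the EedmNull embryos are taken within each embryo. Of 402 recomputed values of single genes, 375 kept their side of the threshold and, where it was checked, their direction. Direction was not checked for XRRa KO ratios short of 2-fold. Of 150 summary values, 117 stayed within their limits. Genes called lower on the paternal allele numbered 2 as reported, 4 with a pseudocount of 0.1 FPKM, 11 with no minimum, 6 at a mean total of at least 5 FPKM and 2 to 205 when 1 embryo was left out (205 without embryo 13); genes called higher numbered 0 as reported, 0 to 1 when 1 embryo was left out, and 1 at the minimum of 5 FPKM and without embryos 1 and 4. Genes called lower than the embryo median numbered 37 as reported, 3 with no minimum, 22 to 44 when 1 embryo was left out (most below the reported count without embryo 1, 2, 3, 6 or 7), 24 without embryos 1 and 4, 23 on shares in percent and 11 against a median of genes of at least 50 FPKM; those called higher numbered 34, 18 with a pseudocount of 0.1 FPKM, 2 with no minimum, 19 at 5 FPKM, 20 to 58 when 1 embryo was left out (most apart without embryo 1, 2, 3, 4 or 13), 16 without embryos 1 and 4, and 129 against the median of abundant genes. Slopes were called below 0 for 1 gene with no minimum, and above 0 for 169 of the fewer genes tested at 5 FPKM, against 279.

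Letting the variance trend follow the mean total level, a setting first tried after the results of the reported one had been seen, gave 29 genes called lower and 1 higher between alleles, and moved Ngfrap1 to an adjusted p of 0.0558 against the embryo median. Ngfrap1 also missed 0.05 with a pseudocount of 0.1 FPKM (0.0516), with no minimum (0.0946), without embryos 1 and 4 (0.159) and on shares (0.108), so its call rests on the setting. Distances of the opposite sign, none of them past the threshold, were those of Bex4 (0.46 with a pseudocount of 0.1 FPKM, 0.23 at 5 FPKM, 0.68 against abundant genes and 3.40 points on shares), Tceal8 (-0.43 with no minimum), Wbp5 (0.19 points on shares) and Morf4l2 (0.10 against abundant genes and 2.29 points on shares). The slope of Tceal8 had an adjusted p of 0.0573 without embryos 1 and 4. Summed over the 6 genes, the paternal share was 32.5% in morulae, against a median of 82.8%, and 5.41% in yolk sac, against 0%, since Morf4l2 and Wbp5 carry most of those sums. The median share difference was 73.5 points against control female morulae (6 genes) and 15.0 points against stage-table morulae (5 genes, without Tceal8, which was below 1 FPKM there). Apart from the variance trend, the settings added after the data were seen were the share scale, the median of abundant genes and the removal of embryos 1 and 4. The cause of these changes was not tested.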
